A study of Mus musculus with 2 samples.

Results

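The genes described here are 9 scavenger receptor genes of the mouse, Marco, Msr1, Cd36, Scarb1, Scarb2, Olr1, Scarf1, Stab1 and Cd163. They were taken by symbol from a table of raw read counts for 46095 genes, and all 9 were present. The set was put together with the ratio of Marco between the libraries already known, so every ratio below is a description and not a test. The study used RNA sequencing to compare macrophages of 2 genotypes, with macrophage polarization as its stated subject. The TIPE1-KO library is labelled with the genotype TIPE1-/-, and the design text gives the mice as LyzM-Cre; Tipe1f/f. In these mice Cre recombinase is driven by the Lyz2 locus, which is active in myeloid cells, so cells of other lineages keep the floxed gene. The WT library is labelled wild type, and the design text gives its mice as Tipe1f/f without Cre. Both were C57BL/6, and in both the cells came from femur and tibia marrow grown for 5 days in 100 ng/ml M-CSF, the growth factor that turns marrow progenitors into macrophages. The age and sex of the mice and the number of mice behind each library are not stated in the labels.

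There was 1 library per genotype, called KO and WT for short below, so no difference has a replicate check and no p-value was computed. The libraries held 15815956 reads (TIPE1-KO) and 11782664 reads (WT). Tnfaip8l1, the gene that encodes TIPE1, had 3 reads in the TIPE1-KO library and 21 in the WT library, in the direction of the labels. Both counts are low, and 3 reads is the count taken below as the detection floor. No label states which exons were deleted. Lyz2, the locus that carries Cre, stood at 8028 CPM in KO against 14958 CPM in WT, where CPM are reads per 1000000 of the scaled library. Tnfaip8l1 averaged 0.967 CPM over both libraries, under the 1 CPM asked of the genes tested below. The macrophage label was checked on 15 core macrophage genes. Csf1r, the M-CSF receptor, stood at 2414 CPM in the TIPE1-KO library and 2646 CPM in the WT library, and Itgam, a beta-2 integrin chain, at 1467 CPM in KO against 1099 CPM in WT. Aif1, a gene of most macrophages, was listed at 0 in both libraries, so a listed 0 is not read as absence anywhere below.

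Scavenger receptors are surface or lysosomal proteins that bind a broad range of polyanionic ligands, among them modified lipoproteins, bacteria, dying cells and matrix fragments. The name covers unrelated protein families that are grouped into lettered classes. Macrophages use them to clear particles and to take up oxidised lipoprotein, the step by which they become foam cells in atherosclerotic plaques. MARCO in particular is known from alveolar and splenic marginal zone macrophages and is inducible in other macrophages by bacterial products.

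The sequence just upstream of 3 of these genes is shown first, because Marco and Olr1 had the largest ratios among the 9 and Stab1 the lowest. RefSeq (GRCm38.p6) gave an upstream window for 6 of the 9 members, Marco, Cd36, Scarb2, Cd163, Olr1 and Stab1. Each line is the 250 bases before the annotated start, 5′ to 3′ on the gene's strand, at chr1:120505025-120505274 (minus strand) for Marco, chr6:129507166-129507415 (minus strand) for Olr1 and chr14:31168642-31168891 (minus strand) for Stab1. Capitals mark every match to the 5 motifs searched.
Marco: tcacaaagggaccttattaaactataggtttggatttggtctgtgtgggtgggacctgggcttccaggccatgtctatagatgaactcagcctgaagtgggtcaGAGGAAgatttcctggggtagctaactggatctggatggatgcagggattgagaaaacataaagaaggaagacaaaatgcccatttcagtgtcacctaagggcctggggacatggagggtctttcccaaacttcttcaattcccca
Olr1: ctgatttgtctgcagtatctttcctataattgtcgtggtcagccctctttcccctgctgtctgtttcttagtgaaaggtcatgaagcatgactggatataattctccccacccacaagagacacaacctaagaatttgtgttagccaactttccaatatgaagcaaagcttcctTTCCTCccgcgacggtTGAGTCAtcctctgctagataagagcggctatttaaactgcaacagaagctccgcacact
Stab1: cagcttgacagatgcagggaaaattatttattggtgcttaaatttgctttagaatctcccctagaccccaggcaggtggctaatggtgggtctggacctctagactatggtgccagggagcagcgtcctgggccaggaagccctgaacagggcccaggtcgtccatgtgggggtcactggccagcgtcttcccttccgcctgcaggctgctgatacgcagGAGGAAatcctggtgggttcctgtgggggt

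Each motif was searched on both strands in the 250 bases upstream of 32851 annotated starts. The letters were TGANTCA for AP-1, TGANNNNGC for the antioxidant response element bound by NRF2, GAGGAA for PU.1, CACGTG for the E-box and TTCNNNGAA for STAT factors. The AP-1 and antioxidant letters can overlap each other. The PU.1 letters, present in 23.25% of all windows, matched in Marco, Olr1 and Stab1. Olr1 alone of the 6 had an AP-1 match, tgagtca at 60 to 54 bases before the start, a motif found in 6.75% of all windows. The antioxidant letters, present in 35.2% of all windows, matched in Scarb2 only. E-box and STAT letters matched in 0 of the 6 windows and in 6.02% and 7.02% of all windows. These matches are letters in a window, and binding of any factor was not measured.

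Marco, a class A receptor with a collagen-like stalk that binds bacteria and inhaled particles, differed most of the 9 between the libraries. It had 3446 reads in the TIPE1-KO library and 92 in the WT library, or 223 CPM in KO against 7.62 CPM in WT after scaling each library to its effective size. That is 29.3-fold higher in the TIPE1-KO library, with a 95% counting interval of 23.8 to 36.5. The interval covers counting error only and not the variation between mice or cultures. Marco (ENSMUSG00000026390, GRCm38 chromosome 1, 120474538 to 120505024, protein-coding; the other 8 are protein-coding too, with positions from the same build) was gene number 775 of the table by CPM in the TIPE1-KO library and number 8996 in the WT library. By ratio it ranked 6 of the 12495 genes that averaged 1 CPM or more over both libraries, and 7 genes in all, Marco included, were at least 20-fold higher. In a bulk sample more cells that express a gene and more RNA of it per cell cannot be told apart, here or for any gene below.

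Msr1 (chromosome 8, 39581685 to 39642673) encodes scavenger receptor A, the other class A member, which shares the collagen-like stalk and binds modified lipoproteins and bacteria. It had 9885 reads in the TIPE1-KO library and 5193 in the WT library, 641 CPM in KO against 430 CPM in WT. The ratio was 1.49 (1.44 to 1.54). Genes were counted as higher or lower if they were at least 1.5-fold apart in CPM with an interval that excluded 1, and Msr1 lay just under that limit. By this rule 6.47% of the 12495 genes tested were higher and 7.23% lower.

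Cd36 (chromosome 5, 17781690 to 17888801) encodes a class B receptor for oxidised LDL that also carries long-chain fatty acids. It had 36994 reads in the TIPE1-KO library and 18872 in the WT library, 2398 CPM in KO against 1562.5 CPM in WT, which made it gene number 26 of the table in the TIPE1-KO library and number 40 in the WT library. The ratio of 1.53 (1.51 to 1.56) lay just above the limit. That call was lost when libraries were scaled by total counts, where the ratio was 1.46, and when they were scaled by the summed core macrophage genes, where it was 1.47. Scarb1 (chromosome 5, 125277087 to 125341094), the class B receptor gene for cholesterol exchange with HDL, had 986 reads in the TIPE1-KO library and 675 in the WT library, 63.9 CPM in KO against 55.9 CPM in WT and a ratio of 1.14 (1.04 to 1.26). Scarb2 (chromosome 5, 92441314 to 92506833) encodes LIMP-2, a lysosomal membrane protein of the same family that takes part in enzyme transport to the lysosome. It stood on the other side, with 3424 reads in the TIPE1-KO library and 3594 in the WT library, 222 CPM in KO against 298 CPM in WT, or 1.34-fold lower (1.28 to 1.41).

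**Figure D1:**
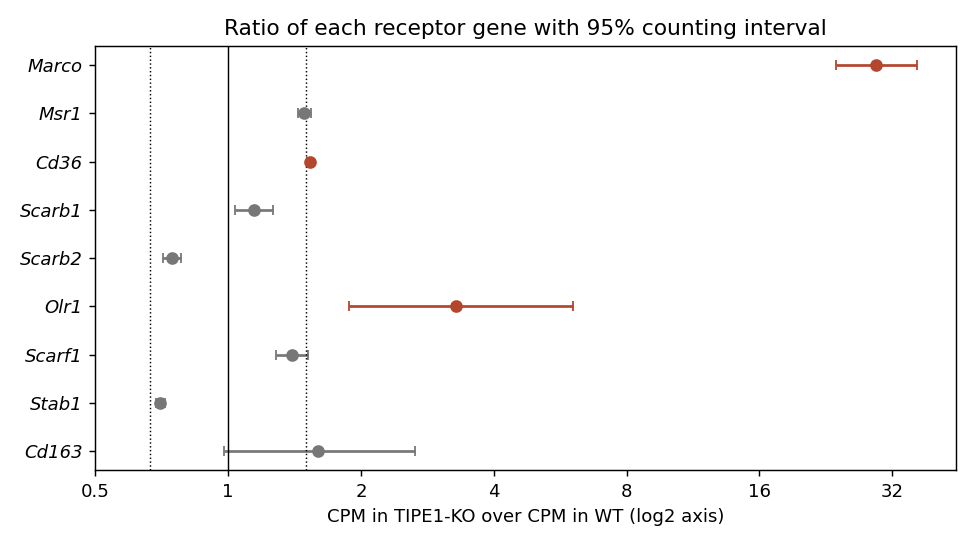
Ratio of CPM in the TIPE1-KO library over CPM in the WT library for each receptor gene, on a log2 axis, with bars for the 95% counting interval, a solid line at 1 and dotted lines at 1.5-fold in either direction. Red marks the 3 genes counted as higher, Marco at 29.3, Olr1 at 3.28 and Cd36 at 1.53, and Stab1 and Scarb2 lie left of 1 without reaching the lower limit.

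Olr1 (chromosome 6, 129485244 to 129507165) encodes LOX-1, a class E lectin-like receptor for oxidised LDL best known from endothelium. It had 67 reads in the TIPE1-KO library and 16 in the WT library, 4.34 CPM in KO against 1.32 CPM in WT, and was 3.28-fold higher (1.88 to 6.06). Both levels were low, and the width of the interval follows from the few reads. Cd163 (chromosome 6, 124304656 to 124330527), the class I receptor gene for uptake of haptoglobin-bound haemoglobin, also had few reads. It had 53 reads in the TIPE1-KO library and 26 in the WT library, 3.44 CPM in KO against 2.15 CPM in WT, and its ratio of 1.60 (0.980 to 2.66) was not counted because the interval included 1. With the main scaling, a difference of that size in Cd163 was not detectable at this depth. It was counted as higher, at a ratio of 1.68, when libraries were scaled by the core macrophage genes without Adgre1, Cd14 and Cd68.

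Scarf1 (chromosome 11, 75513540 to 75526582), which encodes the class F receptor SREC-I for acetylated LDL and apoptotic cells, had 1621 reads in the TIPE1-KO library and 909 in the WT library. That was 105 CPM in KO against 75.3 CPM in WT, a ratio of 1.40 (1.29 to 1.52), under the limit. Stab1 (chromosome 14, 31139013 to 31168641) encodes stabilin-1, a large class H receptor of tissue macrophages and sinusoidal endothelium that takes up SPARC and phosphatidylserine-bearing cells. It had 13362 reads in the TIPE1-KO library and 14912 in the WT library, 866 CPM in KO against 1235 CPM in WT, or 1.43-fold lower (1.39 to 1.46), the lowest ratio of the 9. The opposite-strand gene Nt5dc2 overlaps Stab1 by 112 exon bases, 1.09% of the Stab1 exons, and was 1.64-fold lower (1.47 to 1.83). No source used here says whether counting used strand, and reads in that overlap can therefore not be assigned.

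In all, 3 of the 9 members (Marco, Olr1 and Cd36) were counted as higher in the TIPE1-KO library, 0 as lower and 6 as neither. This stands beside the 6.47% of all genes higher and 7.23% lower. Since the set was chosen on this contrast, the share is not read as a property of scavenger receptors. At a limit of 2-fold, Marco and Olr1 were counted, against 2.59% of all genes higher and 4.78% lower. The log2 ratios of the 9 ran from -0.51 to 4.87 with a median of 0.58, beside a median of 0.01 over all genes tested. Without Marco the median of the remaining 8 was 0.53. The central 90% of all genes lay between -0.98 and 0.75, and of the members Marco and Olr1 fell outside that range. All 9 passed the minimum of 1 CPM on the mean of both libraries.

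**Figure D2:**
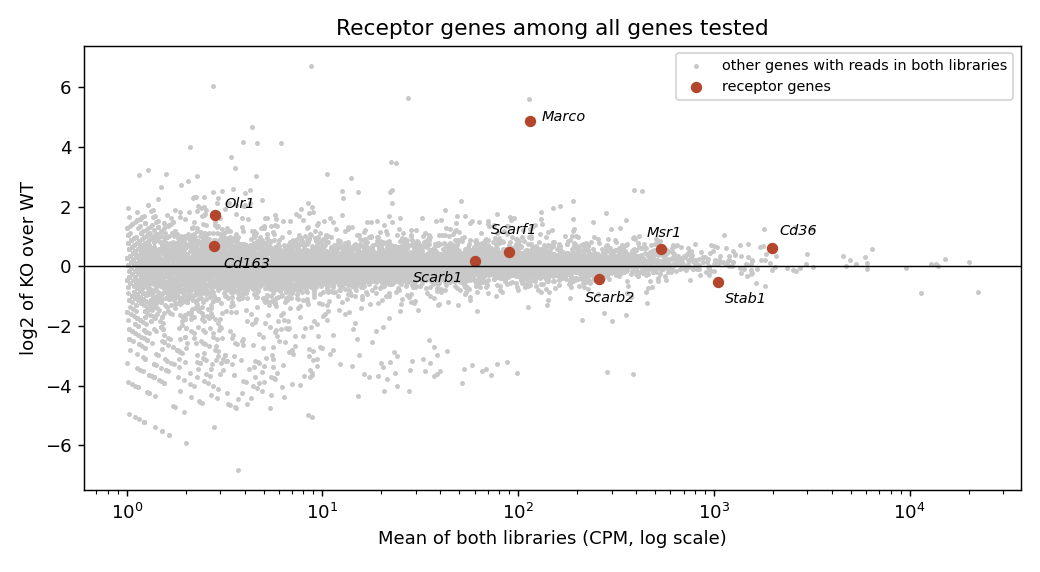
Log2 of the TIPE1-KO over WT ratio against the mean CPM of both libraries (log axis), with 1 grey point for each other gene tested that had reads in both libraries and red points for the receptor genes. Marco, at a log2 ratio of 4.87, stands apart from most genes of its level, while the other receptor genes apart from Olr1 lie within or at the edge of the cloud.

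The places by CPM given above are not corrected for length. Levels of different genes were otherwise compared per length, as TPM, the length-corrected share of transcripts, over merged exons of the GENCODE M21 annotation. By TPM, Marco was gene number 302 in the TIPE1-KO library and 7179 in the WT library. Cd36 was number 33 in KO and 46 in WT. In the TIPE1-KO library Cd36 led at 2392 TPM, followed by Marco at 416, Msr1 at 362, Stab1 at 302, Scarf1 at 130, Scarb2 at 126, Scarb1 at 26.9, Olr1 at 4.35 and Cd163 at 2.25 TPM. In the WT library the order was Cd36 at 1600 TPM, Stab1 at 441, Msr1 at 249, Scarb2 at 174, Scarf1 at 95.8, Scarb1 at 24.2, Marco at 14.5, Cd163 at 1.45 and Olr1 at 1.36 TPM. Marco thus held the second place in the TIPE1-KO library and the seventh in the WT library. The counting intervals overlapped between Scarf1 (124 to 137 TPM) and Scarb2 (122 to 131 TPM) in the TIPE1-KO library and between Cd163 and Olr1 in the WT library, so the order of these neighbours is not resolved. Merged exons overstate the length of genes with long alternative ends, such as Msr1 at 6344 bases against 3636 bases for its longest coding transcript. With the longest coding transcript as the length, chosen after the data were seen, Msr1 at 456 TPM stood above Marco at 301 TPM in the TIPE1-KO library, and Scarb2 above Scarf1. The order in the WT library was then the same as before.

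**Figure D3:**
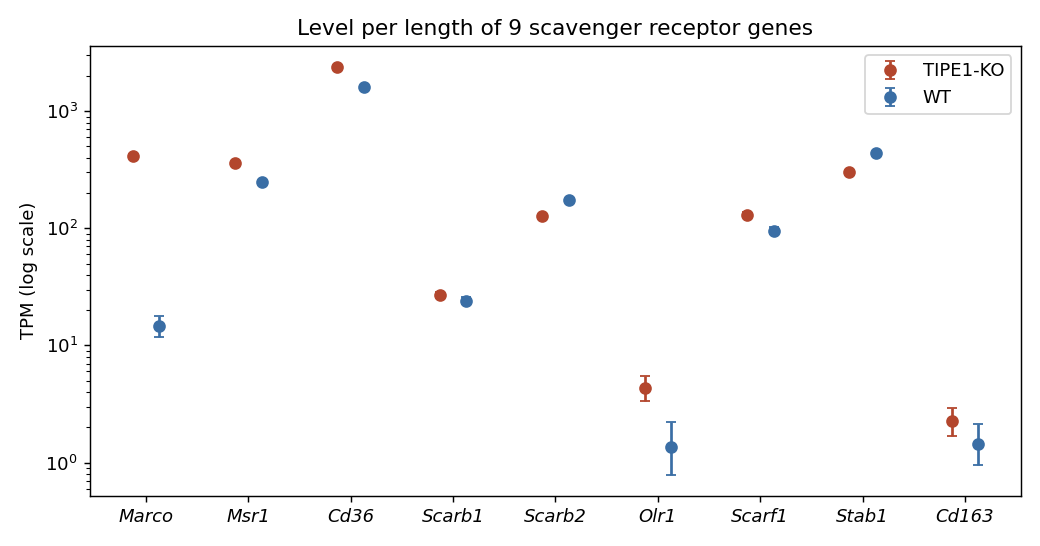
TPM over merged exons (log axis) of the 9 receptor genes, with the TIPE1-KO library left and the WT library right for each gene and bars for the exact 95% Poisson interval of the reads, which is narrower than the point for most genes. Marco has the widest gap, 416 TPM in KO against 14.5 TPM in WT, and Cd36 is the most abundant in both libraries.

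Summed over the 9 genes, receptor transcripts came to 3761 TPM in the TIPE1-KO library and 2602 TPM in the WT library, 1.45 times as many. Cd36 supplied 63.6% of the sum in the TIPE1-KO library and 61.5% in the WT library, and Msr1 9.62% in KO and 9.58% in WT. Marco supplied 11.0% in the TIPE1-KO library and 0.559% in the WT library. The share of Stab1 was 8.02% in the TIPE1-KO library and 17.0% in the WT library, and that of Scarb2 3.36% in KO and 6.69% in WT. Without Marco the sums were 3346 TPM in KO and 2587 TPM in WT, a ratio of 1.29. Most of the difference in the total therefore came from genes with modest ratios and high levels, above all Cd36.

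**Figure D4:**
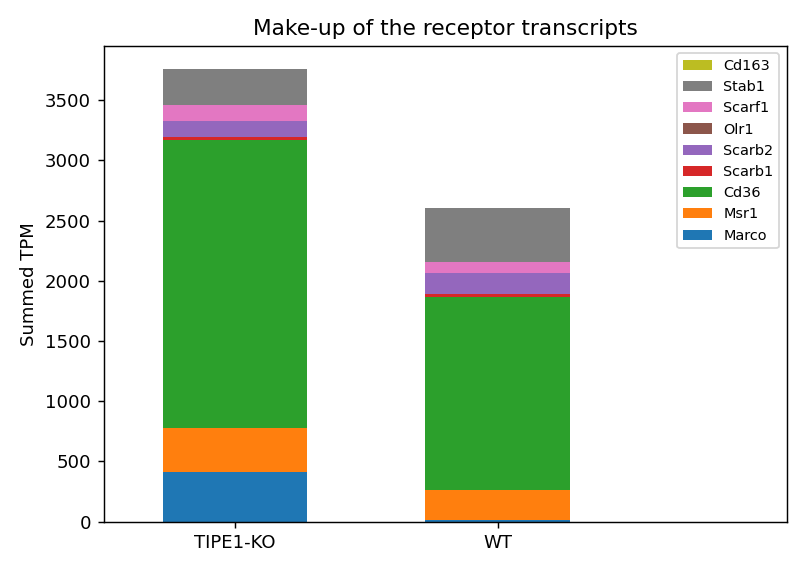
Stacked TPM of the 9 receptor genes in the TIPE1-KO library (left) and the WT library (right). Cd36 makes up most of both bars, and the Marco block at the base is 11.0% of the TIPE1-KO bar and 0.559% of the WT bar.

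The members lie on chromosomes 1, 5, 6, 8, 11 and 14, and position was not used to choose them. For each member the 2 nearest genes on either side that averaged 1 CPM or more were read off the GENCODE M21 order (GRCm38). Of these 36 neighbours 3 were counted as higher, 1 as lower and 32 as neither, with a median log2 ratio of 0.10. Over all genes tested 6.47% were higher and 7.23% lower, so the neighbour counts are not read as a property of these loci. The 4 neighbours of Marco had ratios close to 1. They were Dbi, which encodes an acyl-CoA binding protein, at 67.7 CPM in KO against 64.2 CPM in WT, Steap3, a ferrireductase gene, at 51.7 CPM in KO against 48.0 CPM in WT, Insig2, a regulator of sterol synthesis, at 27.5 CPM in KO against 28.2 CPM in WT, and Ccdc93 at 98.2 CPM in KO against 85.4 CPM in WT. None of them came near the ratio of Marco itself.

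Olr1 sits among lectin-like receptor genes on chromosome 6. Its neighbours there had ratios from 1.14, for Gabarapl1, which is not a lectin-like gene, to 1.75. Clec7a, which encodes the beta-glucan receptor Dectin-1, stood 12.5 kb away at 337 CPM in the TIPE1-KO library and 228 CPM in the WT library, a ratio of 1.47 (1.41 to 1.54). Clec1b had 38 reads in the TIPE1-KO library and 17 in the WT library, a ratio of 1.75 (0.964 to 3.31), and neither gene was counted. The 3 neighbours counted as higher were Clec4e, which encodes the mycobacterial glycolipid receptor Mincle and lies 1015 kb from Cd163, at 3.45-fold, the chemokine gene Cxcl10, 92.4 kb from Scarb2, at 2.76-fold and Phtf2, 2870 kb from Cd36, at 1.63-fold. Scarb2 lay on the other side of 1 from its neighbours Nup54 and Cxcl10, which had ratios of 1.43 and 2.76. The 1 neighbour counted as lower was Nt5dc2, beside Stab1.

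**Figure D5:**
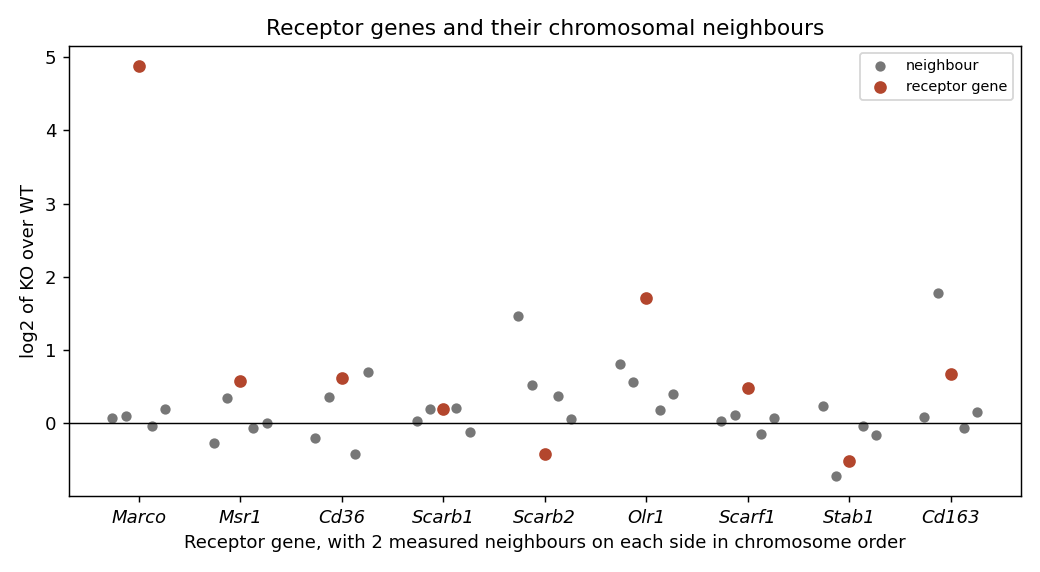
Log2 of the TIPE1-KO over WT ratio for each receptor gene (red) and for the 2 measured neighbours on each side in chromosome order (grey). The neighbours of Marco lie between -0.04 and 0.20, while Marco is at 4.87.

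The 4 genes averaging 10 CPM or more whose log2 ratio lay nearest to that of Marco were Slc13a3, Rpl29, Slamf9 and Siglece, where likeness is the difference in log2 ratio over 2 libraries. Slc13a3, a dicarboxylate transporter gene, came closest at 222 CPM in the TIPE1-KO library and 4.55 CPM in the WT library, 0.74 log2 units above Marco. Slamf9 and Siglece were 1.38 and 1.42 log2 units below Marco. Rpl29, at 0.77 above, has processed copies elsewhere in the genome, so its count is uncertain. So small a number of libraries cannot show whether these genes vary together.

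Other genes of the scavenger receptor classes were taken from a list of 20, and as before a mean of 1 CPM over both libraries was required. Of these, 12 reached that level, with 2 counted as higher, 2 as lower and 8 as neither and a median log2 ratio of 0.09. The counts of this and every later list stand beside the 6.47% of all genes higher and 7.23% lower. Some genes are in more than 1 list, among them Cd5l, Itgb2, Timd4, Nr1h3 and Apoe. The counts of different lists are therefore not separate observations. Cd5l, a secreted macrophage protein with the same cysteine-rich domain type as MARCO and CD163, stood at 56.8 CPM in the TIPE1-KO library and 19.6 CPM in the WT library (2.89-fold higher, 2.50 to 3.35). Cxcl16, a transmembrane chemokine that also binds oxidised LDL, stood at 21.6 CPM in KO against 11.4 CPM in WT (1.89-fold higher, 1.55 to 2.33). The lower members were the class A genes Colec12 at 54.8 CPM in KO against 83.9 CPM in WT, a call lost (1.46-fold lower) when libraries were scaled by the core macrophage genes without Adgre1, Cd14 and Cd68, and Scara3 with 4 reads in the TIPE1-KO library and 44 in the WT library. Of the other genes of this list that averaged over 100 CPM, which were all counted as neither, Cd68, Lrp1 and Mrc1 had ratios of 1.06, 1.06 and 1.07, with Cd68 at 1589 CPM in KO against 1493 CPM in WT, Lrp1 at 1505 CPM in KO against 1418 CPM in WT and the mannose receptor gene Mrc1 at 415 CPM in KO against 389 CPM in WT. Cd14, the lipopolysaccharide co-receptor gene, had a ratio of 1.22 (1.19 to 1.26), Lgals3bp, which encodes a secreted galectin-binding protein, 1.27 (1.24 to 1.30) and Cd44, the hyaluronan receptor gene, 1.31 (1.26 to 1.37). Scara5, Asgr1, Dmbt1 and Ager were listed at 0 in both libraries. Stab2, the paralogue of Stab1, had 32 reads in the TIPE1-KO library and 24 in the WT library, a ratio of 1.04 (0.596 to 1.85).

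Receptors for native lipoprotein numbered 11, of which 1 counted as higher, 1 as lower and 9 as neither (median log2 ratio -0.05). The lower one was the VLDL receptor gene Vldlr, with 32 reads in KO and 86 reads in WT (3.43-fold lower, 2.26 to 5.33). Sorl1 and Lrp5 were 1.32-fold and 1.28-fold lower, under the limit, and Lrp8 had a ratio of 1.26 (0.967 to 1.66). Genes that handle lipid after uptake numbered 17, of which 3 counted as higher, 1 as lower and 13 as neither (median log2 ratio -0.08). The cholesterol exporter gene Abcg1 stood at 177 CPM in the TIPE1-KO library and 108 CPM in the WT library, Nr1h3, which encodes the oxysterol sensor LXR alpha, at 55.2 CPM in KO against 26.8 CPM in WT, and lipoprotein lipase (Lpl) at 3676 CPM in KO against 1488 CPM in WT. Apoe, the apolipoprotein that accepts exported cholesterol, was 1.80-fold lower (1.80 to 1.81). Modified-lipoprotein receptors and the genes downstream of them thus did not share 1 direction.

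Partners of CD36 in signalling numbered 14, of which 2 counted as higher, 0 as lower and 12 as neither (median log2 ratio 0.31). The higher ones were the kinase gene Src at 33.2 CPM in the TIPE1-KO library and 20.3 CPM in the WT library and the beta-2 integrin gene Itgb2 at 1270 CPM in KO against 813 CPM in WT. The Itgb2 call was lost with total counts (ratio 1.49) and, just under the limit, with the summed core macrophage genes. The kinase gene Lyn and the inflammasome sensor gene Nlrp3 had ratios of 1.39 and 1.36, below the limit. Genes of haem and iron handling after CD163 uptake gave 0 of 10 in either direction, with a median of 0.14, and Blvrb, a biliverdin reductase gene, had the largest ratio at 1.32 (1.23 to 1.42). The haem transporter gene Slc48a1 and the ferritin gene Ftl1 had ratios of 1.14 and 1.23. Lysosomal partners gave 0 of 14 in either direction and a median of 0.06. Scarb2 itself was at 0.746 of its WT level. Tfe3, a transcription factor of lysosomal genes, and the lysosomal lipid genes Npc2 and Lipa had ratios of 1.14, 1.15 and 1.16.

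Ligands of these receptors numbered 17, of which 1 counted as higher, 9 as lower and 7 as neither (median log2 ratio -0.85). Sparc, the matrix protein that stabilin-1 internalises, was 11.9-fold lower at 15.2 CPM in the TIPE1-KO library and 181 CPM in the WT library. Col1a1, Col3a1 and Thbs2 were 12.1-fold, 12.5-fold and 20.2-fold lower, and the proteoglycan gene Bgn 9.57-fold lower. Thbs1, a ligand of CD36 made by macrophages as well, stood at 1329 CPM in KO against 1947 CPM in WT and was not counted. The higher ligand gene was Saa3, an acute-phase lipoprotein component, at 809 CPM in KO against 493 CPM in WT. The other lower ligand genes were Dcn, the collagen genes Col4a1 and Col4a2, and Apoe. They were 5.49-fold, 5.02-fold, 2.63-fold and 1.80-fold lower. Sparc, Col1a1, Col3a1, Bgn and Dcn are also stromal markers. Of 14 stromal markers measured 13 were lower and 0 higher, and the summed level of the 15 was 187 CPM in the TIPE1-KO library and 2077 CPM in the WT library, with Tagln listed at 0 in both. Col5a1, Postn and Acta2 were 15.0-fold, 12.7-fold and 17.9-fold lower. The part of stromal cells in the ligand values, or in those of the receptors, was not tested.

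Transcription factors known to act on macrophage receptor genes numbered 23, of which 2 counted as higher, 2 as lower and 19 as neither (median log2 ratio 0.03). Nr1h3 and Egr2 (73.7 CPM in KO against 40.1 CPM in WT) were the higher ones, and Cebpa was among the lower ones at 87.4 CPM in KO against 133 CPM in WT, a call lost under the same scaling as that of Colec12 (1.45-fold lower). Nfe2l2, which encodes NRF2, had a ratio of 1.19 (1.15 to 1.22). Other phagocytic receptors numbered 15, of which 4 counted as higher, 1 as lower and 10 as neither (median log2 ratio 0.42). Clec4e, Itgb2, the Fc receptor gene Fcgr4 (119 CPM in KO against 78.6 CPM in WT) and Timd4 were higher, and Clec4n, which encodes Dectin-2, was 1.82-fold lower (1.70 to 1.95). Under the scalings that ended the Itgb2 call, Fcgr4 was not counted either (ratios 1.44 and 1.45). Clec4 and Fc receptor genes lie in clusters of similar copies, and how counting treated reads shared between copies is not known.

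Markers of splenic, liver and alveolar macrophages were read beside these values. MARCO is known from only some of these macrophages, and the lists are not limited to them. Of 9 markers of splenic and liver macrophages 7 were measured, with 5 counted as higher and 0 as lower, beside 6.47% of all genes higher and 7.23% lower. Among genes averaging 10 CPM or more, 3 of the markers (Folr2, Cd5l and Vcam1) were counted as higher. Siglec1, the only other marker at that level, was not. At the same filter 412 of all genes were counted as higher and 223 as lower. The summed level of the list was 1207 CPM in the TIPE1-KO library and 778 CPM in the WT library. Most of it was Siglec1, at 895 CPM in KO against 631 CPM in WT, a ratio of 1.42 that was not counted. Vsig4, with 23 reads in KO and 11 in WT, was not counted either. Folr2, a folate receptor, stood at 232 CPM in KO against 115 CPM in WT, Cd5l at 2.89-fold, Vcam1 at 15.1 CPM in KO against 8.86 CPM in WT, Spic, a transcription factor of red pulp macrophages, at 4.15 CPM in KO against 1.66 CPM in WT and Timd4 at 32 reads in KO against 3 in WT (ratio 8.35, 2.61 to 42.6). Cd209b, the marginal zone marker, and Clec4f, the Kupffer cell marker, were listed at 0 in both. Of 7 alveolar macrophage markers 3 were measured and 0 counted in either direction, with a summed level of 96.1 CPM in the TIPE1-KO library and 140 CPM in the WT library. Chil3 stood at 92.7 CPM in KO against 135 CPM in WT, and Car4, Fabp1, Krt79 and Krt19 were listed at 0. The part of these markers in the Marco value was not tested.

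Other cell types known for these receptors were also read. Of 14 endothelial markers 8 were measured, with 1 higher, 3 lower and 4 neither, and their sum was 60.5 CPM in the TIPE1-KO library and 58.5 CPM in the WT library. The lower ones were Cdh5, Egfl7 and Robo4. Vwf was the higher one at 32.1 CPM in KO against 17.8 CPM in WT, and Pecam1 and Kdr stood at 10.3 CPM in KO against 11.8 CPM in WT and 10.7 CPM in KO against 13.4 CPM in WT. Adipocyte markers summed to 0.130 CPM in the TIPE1-KO library and 0.248 CPM in the WT library, with 6 of 7 listed at 0. Platelet and megakaryocyte markers summed to 8.30 CPM in KO against 14.4 CPM in WT, with Itga2b 2.06-fold lower, and erythroid markers to 0.259 CPM in KO against 0.497 CPM in WT. The part of these cells in the Cd36 value was not tested.

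Among the remaining marker lists, 4 of 7 monocyte genes, 4 of 10 neutrophil genes, 4 of 5 B cell genes and the 1 dendritic gene measured were counted as lower and none of them as higher. Over all genes 7.23% were lower. Many of these calls rest on few reads. Among genes averaging 10 CPM or more, those counted as lower were 4 of 7 monocyte, 1 neutrophil, 0 B cell and 0 dendritic genes. The B cell and dendritic genes counted as lower all averaged under 10 CPM. That filter removed them, so their 0 is no result. At the same filter 412 of all genes were counted as higher and 223 as lower. The monocyte genes F13a1, Vcan and Cx3cr1 were 2.98-fold, 2.48-fold and 2.39-fold lower, and the neutrophil genes Cxcr2, Retnlg and Ltf 2.89-fold, 2.11-fold and 1.48-fold lower, the last under the limit. The B cell lectin gene Cd22 stood at 47.5 CPM in KO against 46.5 CPM in WT. The osteoclast list had 4 of 5 higher and 0 lower, and 2 higher at a limit of 2-fold. Mmp9 led at 732 CPM in KO against 126 CPM in WT. Dcstamp had 64 reads in KO and 10 in WT, a ratio of 5.01 (2.56 to 10.9). Acp5 and Atp6v0d2 were 1.95-fold and 1.66-fold higher. Ctsk went the other way, 1.27-fold lower (1.10 to 1.47), under the limit. Core macrophage genes had 1 of 14 higher, Adgre1 (F4/80) at 2.40-fold, and 0 lower, with summed levels of 22034 CPM in KO against 21164 CPM in WT. The part of these other cell types in the receptor values was not tested.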

How the data were processed

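Raw read counts per gene symbol were deposited by the authors in 1 table, with a column for each library. The submitters' processing notes name HISAT2 and GRCm38. How reads were counted and filtered, on which annotation and with what strand setting, is not stated there. Counts were divided by TMM effective library sizes (edgeR 4.0.16 under R 4.3.3) to give CPM. Each gene's CPM ratio of TIPE1-KO over WT carries a 95% interval from the exact binomial (Clopper-Pearson) limits of its read split (scipy 1.17.1). The interval covers counting error only. It can be too narrow even for that, since PCR copies without molecular identifiers are not independent. No p-value was computed, because edgeR has no residual degrees of freedom with 1 library per genotype. A count of 3, taken as the detection floor, equals 0.194 CPM (TIPE1-KO) and 0.248 CPM (WT). TPM used merged exon lengths of GENCODE M21, which matched 33912 of 46095 symbols and 94.2% of the genes tested.

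The members and the 22 gene lists were chosen with earlier results of these data known. Named genes were all 9 members, Tnfaip8l1, Lyz2, the chromosomal neighbours, the 4 genes nearest to Marco and, among list genes averaging 5 CPM or more, the largest log2 ratios (up to 4 in a pathway list and 3 in a cell type list). Other list genes are named as examples, chosen after their values were seen. The calculation was tested on simulated counts that held counting error only. That test says nothing of variation between mice or cultures, or of PCR copies. Alternative scalings were total counts, DESeq2 1.42.0 size factors and summed core macrophage counts. Some genes of the lists are not reported here.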

Additional observations from a re-analysis of the deposited data

How the results depend on the processing

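The ratio of Marco ran from 27.9 to 30.8 across 4 alternative scalings, was 27.6 with 0.5 CPM added to both values and 23.4 with 2 CPM added, which by construction pulls low genes toward 1. The count of members counted as higher was 3, or 2 with total counts, with summed core macrophage counts and with a limit of 2-fold, and 5 when Adgre1, Cd14 and Cd68 were left out of the macrophage sum, a setting chosen after the data were seen, in which Msr1 (1.56) and Cd163 passed as well. No member was counted as lower and no member's ratio crossed 1 under any of these scalings. Of 448 recomputed values, list counts included, 403 stayed (a ratio within its main counting interval, a count within 1.5 times of its main value), 45 moved and 0 reversed. Counts of 0 that remained 0 are among those that stayed. Only the ratios of Marco, Olr1 and Cd36 could be labelled as reversed, so the 0 says nothing of the list counts or the other members. Over all genes, 808 were counted as higher and 904 as lower, against 323 and 597 at a limit of 2-fold and 412 and 223 among genes averaging 10 CPM or more. The split was 651 higher and 1061 lower with total counts, 830 and 888 with DESeq2 size factors, 681 and 1034 with summed core macrophage counts and 975 and 790 with the reduced macrophage sum. No paired analysis was possible because there was a single library of each genotype, with nothing to pair. Depth limits Olr1 and Cd163, and the variation between mice or cultures could not be estimated for any gene.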
